A study of Saccharomyces cerevisiae with 17 samples.

Results

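The DNA replication machinery was followed through 45 Saccharomyces cerevisiae genes, which form the origin recognition complex, the replicative helicase and its activators, the S-phase kinases, the polymerases and primase, and the clamp, clamp loader and single-strand binding proteins. They were taken by symbol from a list of known replication genes, out of 5449 genes measured. Each of the 45 had 1 probe set, and all 45 read above a background cutoff on all 17 arrays. That cutoff does not show that a gene is expressed, as the a-cell markers below also passed it. Levels were read on Affymetrix Yeast Genome arrays in BY4742, a haploid laboratory strain of mating type alpha, and in 2 strains derived from it. The FLO1 strain overexpresses FLO1, a cell surface lectin that binds cells into flocs, and the FLO8 strain is labelled BY4742::FLO8, after an activator of flocculin genes. The promoter behind the FLO1 overexpression and the construct behind the FLO8 label are not given in the sources used here.

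Flight groups were WT Microgravity (3 arrays), FLO1 Microgravity (2 arrays) and FLO8 Microgravity (3 arrays). Ground groups were WT Ground, FLO1 Ground and FLO8 Ground, with 3 arrays each. Flight cultures were cells in saline that received rich medium (YPD) on the space station 5 days after launch. Cultures of both conditions were fixed after 72 h of growth, at 23 °C on the station. The ground cultures were run after the flight, following its temperature log, so the time of the experiment and the condition cannot be told apart. In a bulk culture a smaller share of cells in a cell cycle phase and less transcript per cell cannot be told apart. The following 4 flight arrays stood apart in an earlier look at these data: WT Microgravity 3, FLO1 Microgravity 1, FLO8 Microgravity 2 and FLO8 Microgravity 3 (each number is the replicate). Leaving them out left 2 flight arrays in wild type and 1 each in the FLO1 and FLO8 strains, so that fit assumes that a lone array varies like the other groups. The 4 were also picked with the data seen, and leaving them out narrows the spread behind its p-values. Root mean square deviation from the group mean over all genes was 0.351 log2 for both FLO1 flight arrays, so it could not single out replicate 1. It was 0.339 for WT Ground replicate 3, which was kept. A printed flight difference is also given without them where it moved by over 1.5 times or a call changed. The same assumption holds for a FLO1 difference from which 1 of the 2 flight arrays was left out. Without FLO1 Microgravity replicate 2 many more genes of the whole table were called in that strain. A call in that fit is thus not particular to a replication gene. Separate cultures for the replicates are not stated in the labels, so each p-value rests on a spread between arrays that may be technical.

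FLO1 read 12.52 to 12.57 log2 in FLO1 flight and 12.54 to 12.90 in FLO1 ground arrays, where wild-type flight and ground arrays lay at 7.81 to 8.87 and 8.20 to 8.74. FLO11, a flocculin under FLO8 control, read 12.09 to 13.02 and 11.24 to 12.75 in FLO8 flight and ground arrays, above all wild-type arrays (8.11 to 9.43 in flight and 8.49 to 8.67 on the ground). The 4 alpha-cell markers read 8.99 or more on every array. The 7 a-cell markers, which alpha cells keep silent, also read above the background of 4.56 log2 on every array, from 5.42 for ASG7 to 11.06 for MFA1. The lowest level of a replication gene was 5.65, so the background does not separate these genes from silent ones. The FLO8 probe set itself read 7.88 to 8.31 in FLO8 flight and 7.58 to 7.87 in FLO8 ground arrays, below all WT flight (8.94 to 9.43) and WT ground arrays (9.14 to 9.51), in the direction opposite to an added gene. Whether that probe set reads the introduced copy is not given in the sources used here, and the strain is named by its label.

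Replication in yeast begins at origins bound by the origin recognition complex (ORC). In G1, Cdc6 and Cdt1 help ORC to load the MCM ring, which stays inactive until S phase. The kinase Cdc7 with its partner Dbf4, and Cdc28 with the cyclins Clb5 and Clb6, then trigger recruitment of Cdc45 and the GINS complex through Sld3, Sld2 and Dpb11. The unwound strands are coated by replication protein A and copied by polymerases tethered to the PCNA ring. Many of these genes are transcribed in G1 and early S phase under the factor MBF, and MCM genes peak earlier, near the end of mitosis.

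The average of the 3 strains gave the most precise view of flight against ground. CLB6 fell and CDC7 rose, and the other 43 genes did not pass the test. In that comparison 126 of the 5449 genes were called higher (2.31%) and 109 lower (2.00%), 4.31% in either direction. Of the 45 replication genes 1 was called in each direction, a share near that background. Without the 4 arrays that stood apart, with 1 flight array left in 2 of the 3 strains, 8 of the 45 were called, 3 higher and 5 lower, and 1021 of the 5449 genes. A gene was called at an adjusted p under 0.05 in a limma model over all 17 arrays and all genes. The median difference of the 45 genes was 0.04 log2, against 0.03 for all genes. It became −0.01 when each array was centred on its own median, where the median of all genes also turned to −0.01. Of the 45 genes 25 lay above 0 and 20 below, against 54.9% of all genes above 0. At an unadjusted p under 0.05 there were 8 higher (all genes 13.5%) and 2 lower (all genes 8.15%), 10 in all (all genes 21.7%). The plot of average differences by role shows this spread around 0.

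**Figure D1:**
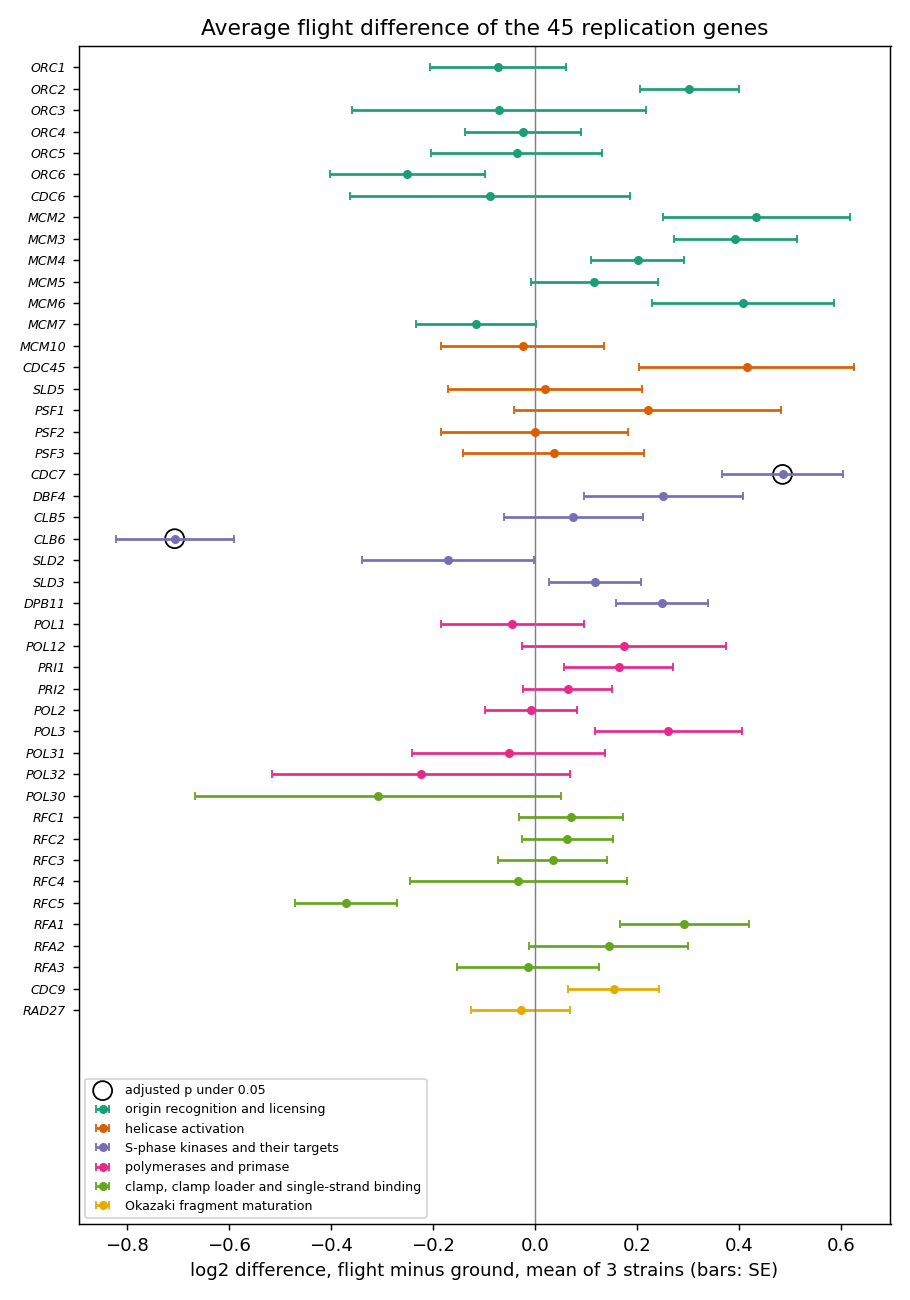
Log2 difference of flight minus ground, averaged over the 3 strains, for the 45 replication genes (rows, coloured by role), with SE as bars from the limma model over 17 arrays. CLB6 at −0.71 and CDC7 at 0.48 are circled as the genes with an adjusted p under 0.05. The other 43 genes lie between −0.37 and 0.43.

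CLB6 (YGR109C) encodes a B-type cyclin that acts with Cdc28 at the start of S phase. It read 6.21, 6.13 and 5.79 log2 on the WT flight arrays, against 6.61, 7.07 and 6.52 on the WT ground arrays. On the FLO1 flight arrays it read 5.76 and 6.21, against 6.71, 6.71 and 6.85 on the FLO1 ground arrays. On the FLO8 flight arrays it read 6.29, 6.48 and 5.96, against 6.99, 7.04 and 6.70 on the FLO8 ground arrays. Every flight array thus lay below every ground array of its own strain. CLB6 was the 1 member of 45 with that pattern in all 3 strains, which 0.679% of all genes showed in the same direction. Its levels, 5.76 to 7.07 over all arrays, lay within the range of the a-cell marker ASG7 (5.42 to 7.94). CLB6 was thus not shown to stand clear of genes that alpha cells keep silent.

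The average CLB6 difference was −0.71 (SE 0.12, limma adjusted p = 0.0062), or 0.613 times the ground level. Within strains it was −0.69 in wild type (SE 0.19, limma adjusted p = 0.191), −0.77 in the FLO1 strain (SE 0.22, limma adjusted p = 0.181) and −0.67 in the FLO8 strain (SE 0.19, limma adjusted p = 0.672), none past the threshold alone. Without the 4 arrays that stood apart the average was −0.57 (limma adjusted p = 0.00732). The average call held without each of the 17 arrays in turn, at differences from −0.78 to −0.63. It ended (adjusted p = 0.501) when the 3 prime minus 5 prime signal difference of control genes, a measure of RNA integrity, was added as a covariate, a fit in which 0 of the 5449 genes were called, where 427 had an unadjusted p under 0.05, among them 4 of the 45. The difference itself was still −0.67 in that fit. The control measure was 1.18 ± 0.02 in flight and 1.09 ± 0.05 on the ground in wild type (SD, n = 3 each), 1.34 ± 0.11 (n = 2) and 1.08 ± 0.07 (n = 3) in the FLO1 strain, and 1.19 ± 0.06 and 1.14 ± 0.06 in the FLO8 strain (n = 3 each). Its part in the CLB6 difference was not tested beyond that fit.

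CDC7 (YDL017W) encodes the catalytic subunit of the kinase that phosphorylates the loaded MCM ring. It read 7.79, 8.24 and 8.58 log2 on the WT flight arrays, against 7.74, 7.83 and 7.96 on the WT ground arrays. On the FLO1 flight arrays it read 8.14 and 8.18, against 7.60, 7.68 and 7.51 on the FLO1 ground arrays. On the FLO8 flight arrays it read 7.93, 8.55 and 8.02, against 7.49, 7.60 and 7.79 on the FLO8 ground arrays. Flight lay above ground without overlap in the FLO1 strain (all genes 22.9%) and in the FLO8 strain (all genes 6.57%). The groups overlapped in wild type through WT Microgravity replicate 1. The average difference was 0.48 (SE 0.12, limma adjusted p = 0.0376), 1.40 times the ground level. The call was lost without any 1 of 11 of the 17 arrays (adjusted p up to 0.0881), with median centring (adjusted p = 0.0505) and with the integrity covariate (adjusted p = 0.547), although the difference stayed between 0.35 and 0.60 in all 25 alternatives. Without the 4 arrays that stood apart it was 0.35 (limma adjusted p = 0.0353).

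**Figure D2:**
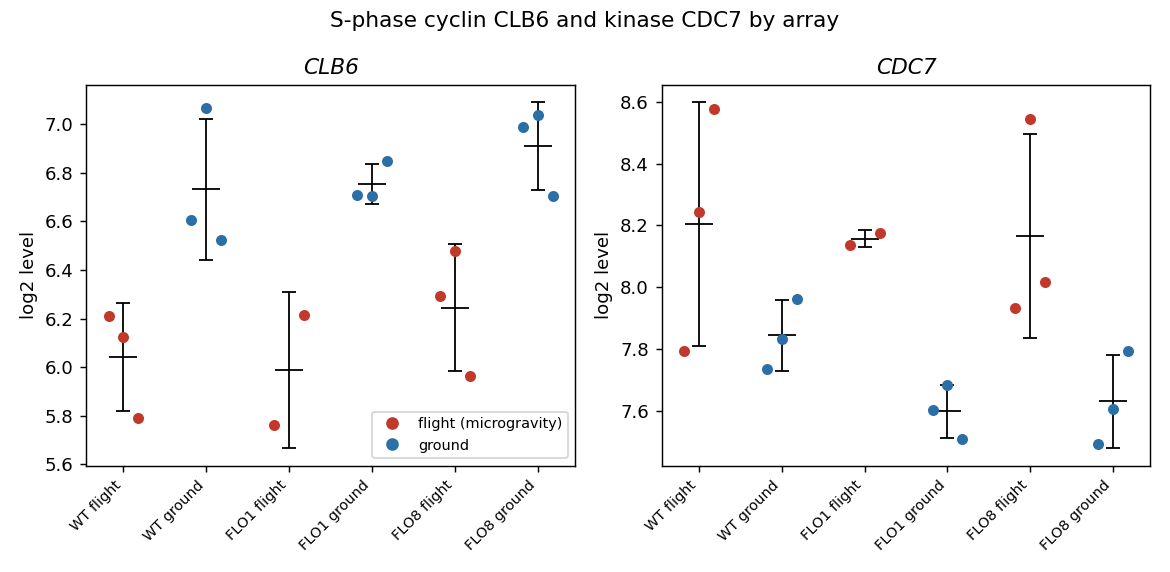
Log2 levels of CLB6 and CDC7 on every array (points), with the group mean and SD in black, flight beside ground for each strain. CLB6 lies at 5.76 to 6.48 on all flight arrays and at 6.52 to 7.07 on all ground arrays, and CDC7 is higher in flight with an overlap in wild type.

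Of the 7 genes for S-phase kinases and their targets 5 had an average difference above 0, the median was 0.12, and CLB6 and CDC7 alone passed. The regulatory subunit of Cdc7, DBF4, averaged 8.34 ± 0.43 log2 in WT flight and 8.01 ± 0.20 in WT ground arrays (SD, n = 3 each), a gap within the spread between replicates. CLB5, the other S-phase cyclin, did not pass. It read 8.66 ± 0.21 in WT flight and 8.55 ± 0.05 in WT ground arrays, and 8.58 ± 0.32 in FLO8 flight and 8.84 ± 0.12 in FLO8 ground arrays (SD, n = 3 each). On the FLO1 flight arrays CLB5 read 9.79 and 8.77, against 8.73, 8.98 and 8.99 on the FLO1 ground arrays. Its flight mean lay above the ground mean in wild type and the FLO1 strain and below it in the FLO8 strain. In the FLO1 strain the sign rested on 1 array: the CLB5 difference was −0.13 without FLO1 Microgravity replicate 1 and 0.89, called, without replicate 2. The difference in response between CLB5 and CLB6 was not tested. DPB11, a scaffold that links Sld2 and Sld3, read 9.76, 9.81 and 9.78 on the WT flight arrays, against 9.50, 9.58 and 9.62 on the WT ground arrays. Its arrays also did not overlap in the FLO1 strain (10.01 and 9.82 in flight, against 9.55, 9.62 and 9.61 on the ground). Of all genes 10.5% lay higher without overlap in wild type and 22.9% in the FLO1 strain. The DPB11 arrays overlapped in the FLO8 strain, with 9.38, 9.75 and 10.04 in flight against 9.44, 9.51 and 9.60 on the ground. They overlapped in the FLO8 strain, with 9.38, 9.75 and 10.04 in flight against 9.44, 9.51 and 9.60 on the ground. Its average difference was 0.25 (SE 0.09, limma adjusted p = 0.127). It was called at 0.31 without FLO8 Microgravity replicate 1 and was 0.10 without the 4 arrays that stood apart. SLD2, which binds Dpb11 once phosphorylated, differed by −0.49 in the FLO8 strain (SE 0.28, limma adjusted p = 0.755), and by −0.08 without the 4 arrays.

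Of the 13 genes for origin recognition and licensing 0 were called, and the median was −0.02, with a range from −0.25 to 0.43. In the average 5 had an unadjusted p under 0.05, all higher (all genes 13.5% higher and 8.15% lower). These 5 were ORC2 and 4 subunits of the MCM ring. MCM3 (YEL032W) read 8.60, 8.93 and 9.35 log2 on the WT flight arrays, against 8.56, 8.57 and 8.61 on the WT ground arrays. In the FLO8 strain it averaged 9.08 ± 0.40 in flight and 8.57 ± 0.10 on the ground (SD, n = 3 each), with no overlap. On the FLO1 flight arrays it read 8.77 and 8.97, against 8.48, 8.64 and 8.64 on the FLO1 ground arrays. Its groups overlapped in wild type, at WT Microgravity replicate 1, and did not overlap in the FLO1 strain. Of all genes 22.9% lay higher without overlap in the FLO1 strain and 6.57% in the FLO8 strain. MCM3 was called without FLO8 Microgravity replicate 1, at 0.45. Its average difference was 0.39 (SE 0.12, limma adjusted p = 0.0803), and 0.24 without the 4 arrays that stood apart.

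Other MCM subunits leaned on single flight arrays. MCM2 read 9.92 and 8.64 on the FLO1 flight arrays, against 8.33, 8.27 and 8.50 on the FLO1 ground arrays. The MCM2 difference in the FLO1 strain was 0.92 (SE 0.34, limma adjusted p = 0.276), which was 0.28 without FLO1 Microgravity replicate 1 and 1.55, called, without replicate 2. Averaged over strains it was 0.43 (SE 0.18, limma adjusted p = 0.19), with 0.22 without replicate 1, 0.65, called, without replicate 2, and 0.14 without the 4 arrays that stood apart. MCM6 read 7.31, 7.49 and 8.21 on the WT flight arrays, against 7.11, 7.30 and 7.03 on the WT ground arrays, an average over strains of 0.41 (SE 0.18, limma adjusted p = 0.202) that was 0.16 without the 4 arrays. MCM4 differed by 0.20 on average (SE 0.09, limma adjusted p = 0.222) and by 0.47 in the FLO1 strain (SE 0.17, limma adjusted p = 0.255), where it was 0.28 without the 4 arrays. MCM7 did not share the direction, with 8.31, 8.26 and 8.11 on the WT flight arrays, all below 8.41, 8.77 and 8.33 on the WT ground arrays.

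ORC2, a DNA-binding subunit of ORC, read 8.92, 9.37 and 8.98 log2 on the FLO8 flight arrays, all above 8.60, 8.83 and 8.66 on the FLO8 ground arrays. Its average difference was 0.30 (SE 0.10, limma adjusted p = 0.092). It was called at 0.34 when the 4 arrays that stood apart were left out. CDC6, the loader of the MCM ring, averaged 7.46 ± 0.74 in WT flight and 7.53 ± 0.67 in WT ground arrays, and 7.35 ± 0.95 in FLO8 flight and 7.46 ± 0.27 in FLO8 ground arrays (SD, n = 3 each). Its spread between replicates exceeded each gap between flight and ground.

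CDC45, which joins MCM and GINS in the active helicase, lay higher in flight without overlap in the FLO1 strain, as did 22.9% of all genes. It read 7.44 and 7.38 log2 on the FLO1 flight arrays, against 6.80, 6.74 and 6.81 on the FLO1 ground arrays. In the FLO8 strain it read 7.47, 8.27 and 6.27 in flight, a range that enclosed the ground values of 6.67, 7.04 and 6.54. Its average difference was 0.41 (SE 0.21, limma adjusted p = 0.274), and it was called at 0.43 without the 4 arrays that stood apart and at 0.59 without FLO8 Microgravity replicate 3. MCM10, which is needed to start unwinding at the assembled helicase, read 6.27, 6.24 and 5.65 on the WT flight arrays, all below 6.45, 6.34 and 6.88 on the WT ground arrays. In the other strains its flight means were higher than its ground means, 6.73 ± 0.33 (n = 2) against 6.51 ± 0.13 (n = 3) in the FLO1 strain and 6.74 ± 0.62 against 6.53 ± 0.05 (n = 3 each) in the FLO8 strain. The flight response of MCM10 differed from that of wild type by 0.73 in the FLO1 strain (SE 0.40, limma adjusted p = 0.994) and by 0.71 in the FLO8 strain (SE 0.38, limma adjusted p = 0.998), neither past the threshold. Without the 4 arrays these were 0.29 and 0.47. The 4 GINS subunits (SLD5, PSF1, PSF2 and PSF3) were not called in any flight comparison over all arrays. PSF3 differed by 0.04 on average (SE 0.18, limma adjusted p = 0.928), and was called lower at −0.35 without the 4 arrays and at −0.48 in the FLO8 strain with array weights. PSF1 read 8.74, 10.08 and 7.95 on the FLO8 flight arrays, a range that again enclosed the ground values of 9.13, 9.18 and 8.86. The 6 genes of helicase activation had a median average difference of 0.03, and 0 were called.

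**Figure D3:**
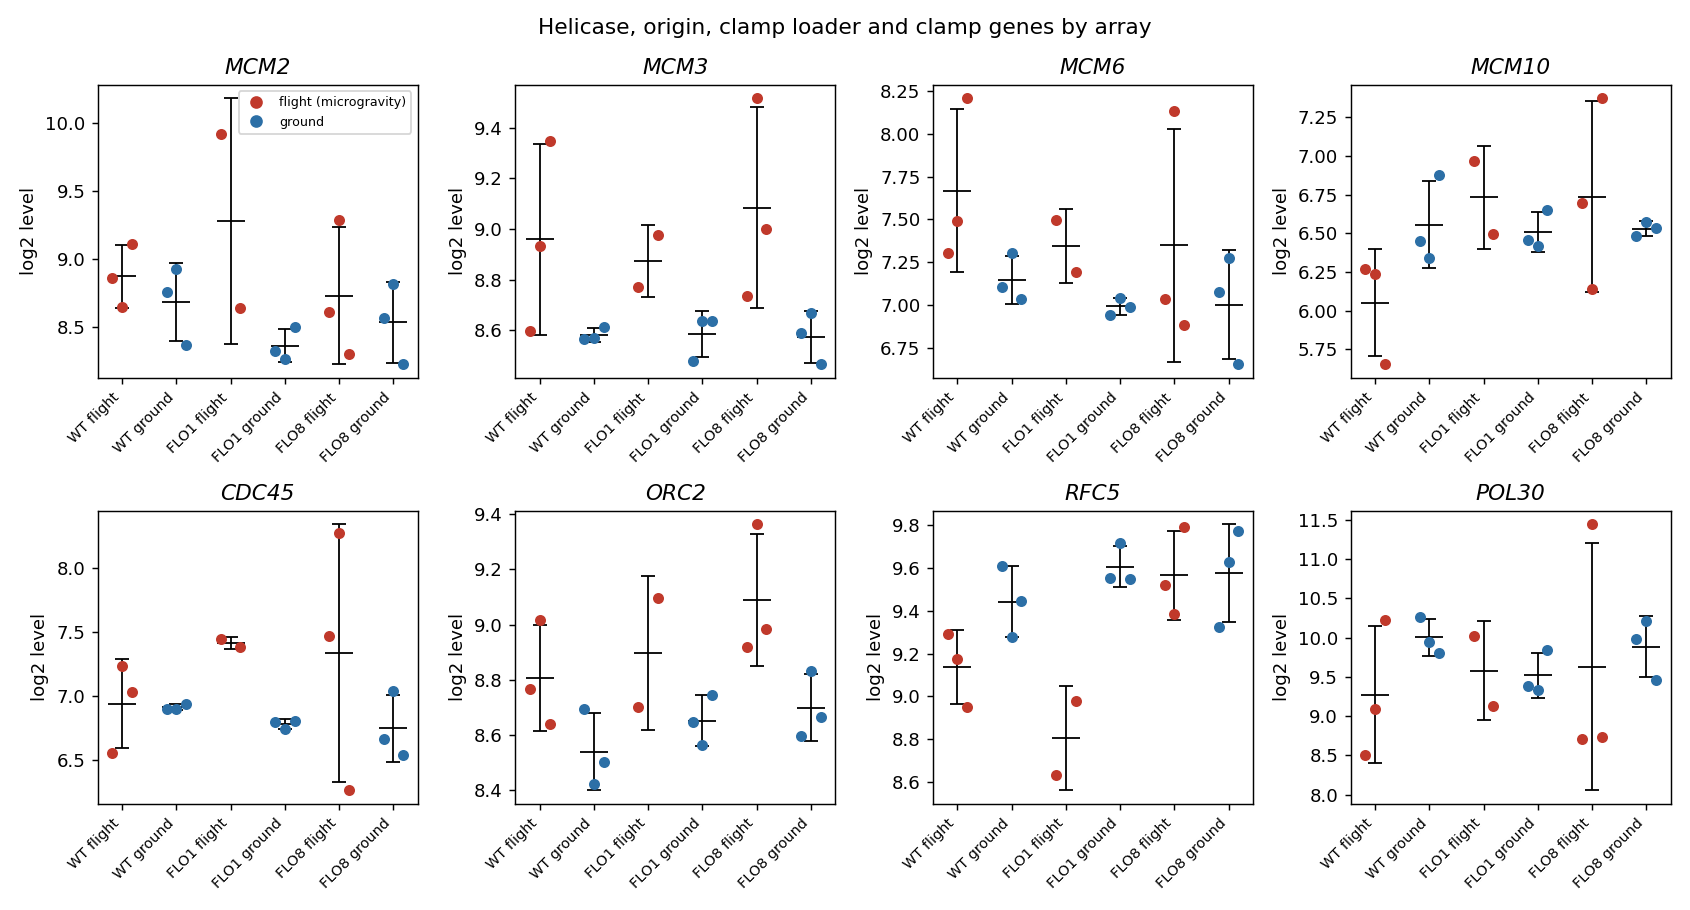
Log2 levels of 8 replication genes on every array (points), with the group mean and SD in black, flight beside ground for each strain. POL30 shows the widest scatter, in FLO8 flight, where 1 array reads 11.45 and the other two 8.71 and 8.73.

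Among the 8 polymerase and primase genes 0 were called in any flight comparison over all arrays, and the average difference ranged from −0.22 to 0.26 with a median of 0.03. POL3, the catalytic subunit of polymerase delta, read 8.46, 8.41 and 8.65 log2 on the WT flight arrays, all above the WT ground arrays at 8.15 ± 0.13 (SD, n = 3). Its difference was 0.36 in wild type (SE 0.24, limma adjusted p = 0.71) and 0.26 on average (SE 0.14, limma adjusted p = 0.312). The average was 0.09 without the 4 arrays. POL2, the catalytic subunit of polymerase epsilon, read 9.32 ± 0.19 in WT flight and 9.24 ± 0.24 in WT ground arrays (SD, n = 3 each), a gap within the spread. POL12, a subunit of the polymerase alpha-primase complex, read 9.71 and 8.09 on the FLO1 flight arrays, against 8.17, 8.13 and 8.20 on the FLO1 ground arrays. Its difference in the FLO1 strain was 0.73 (SE 0.37, limma adjusted p = 0.42). It turned to −0.08 without FLO1 Microgravity replicate 1, and without replicate 2 it was called at 1.54. POL1, the catalytic subunit of that complex, differed by −0.33 in the FLO8 strain (SE 0.23, limma adjusted p = 0.825). It read 8.81, 9.13 and 8.35 on the FLO8 flight arrays, which overlapped the 9.10, 9.24 and 8.95 of the FLO8 ground arrays.

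POL30, which encodes PCNA, the ring that holds polymerases on DNA, had the widest spread of the 45 genes in both the WT flight and the FLO8 flight groups (SD 0.88 and 1.57). It also had the widest spread in the FLO1 ground and FLO8 ground groups (SD 0.28 and 0.39). It read 8.50, 9.09 and 10.23 log2 on the WT flight arrays, against 10.27, 9.94 and 9.80 on the WT ground arrays. On the FLO8 flight arrays it read 8.71, 11.45 and 8.73, against 9.98, 10.21 and 9.46 on the FLO8 ground arrays. On the FLO1 flight arrays it read 10.02 and 9.13, against 9.38, 9.33 and 9.84 on the FLO1 ground arrays. In wild type and the FLO8 strain 4 of the 6 flight arrays lay below every ground array, while WT Microgravity replicate 3 fell within the ground range and FLO8 Microgravity replicate 2 above it. Its average difference over all arrays was −0.31 (SE 0.36, limma adjusted p = 0.654), and without the 4 arrays that stood apart it was called at −0.92 (limma adjusted p = 0.00652). POL32, a subunit of polymerase delta that binds PCNA, differed by −0.22 over all arrays (SE 0.29, limma adjusted p = 0.687), and without the 4 arrays it was called at −0.69 (limma adjusted p = 0.0356). The differences of POL30, POL32, PSF3 and RFC4 are given after their values were seen.

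RFC5, a subunit of the clamp loader that opens PCNA, is the neighbour of POL30 on the chromosome. It read 9.29, 9.17 and 8.95 log2 on the WT flight arrays, against 9.61, 9.28 and 9.44 on the WT ground arrays. On the FLO1 flight arrays it read 8.63 and 8.98, against 9.55, 9.72 and 9.55 on the FLO1 ground arrays. On the FLO8 flight arrays it read 9.52, 9.38 and 9.79, against 9.32, 9.63 and 9.77 on the FLO8 ground arrays. Flight lay below ground without overlap in the FLO1 strain, as for 18.5% of all genes. The groups overlapped in wild type, by 1 array on each side, and in the FLO8 strain. The average difference was −0.37 (SE 0.10, limma adjusted p = 0.0514), just outside the threshold, and it was called with median centring (−0.42), with array weights (−0.36), without FLO1 Microgravity replicate 2 (−0.43) and without FLO8 Microgravity replicate 3 (−0.41). In the FLO1 strain alone it was −0.80 (SE 0.19, limma adjusted p = 0.169), and the response there differed from wild type by −0.49 (SE 0.25, limma adjusted p = 0.994). On FLO8 Microgravity replicate 2, where POL30 was highest, RFC5 was the lowest of its group.

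Of the 9 genes for the clamp, its loader and replication protein A 0 were called on average. RFC5 (lower, all genes 8.15%) and RFA1 (higher, all genes 13.5%) had an unadjusted p under 0.05. RFC4, a loader subunit, differed by −0.03 on average (SE 0.21, limma adjusted p = 0.948), and without the 4 arrays it was called at −0.36. RFC3, another loader subunit, read 8.86, 8.48 and 8.83 log2 on the WT flight arrays, all below 9.02, 8.94 and 8.91 on the WT ground arrays. In the FLO8 strain its difference was 0.27 (SE 0.18, limma adjusted p = 0.808), with the sign turned by array weights (−0.12) and without the 4 arrays that stood apart (−0.11). RFA1, the large subunit of replication protein A, read 9.47, 9.42 and 9.41 log2 on the WT flight arrays, all above 9.26, 9.25 and 8.93 on the WT ground arrays. It read 9.73 and 9.32 on the FLO1 flight arrays, above 9.06, 9.14 and 9.13 on the FLO1 ground arrays (such a separation: all genes 22.9%). It overlapped in the FLO8 strain, with 9.16, 9.83 and 8.78 in flight against 9.08 ± 0.11 on the ground (SD, n = 3), and the average was 0.29 (SE 0.13, limma adjusted p = 0.20). CDC9, the DNA ligase that seals Okazaki fragments, read 8.81 and 8.76 on the FLO1 flight arrays, above 8.33, 8.65 and 8.39 on the FLO1 ground arrays (such a separation: all genes 22.9%). That difference was 0.33 (SE 0.17, limma adjusted p = 0.425). RAD27, the flap nuclease that trims those fragments, read 8.58 ± 0.24 in WT flight and 8.65 ± 0.04 in WT ground arrays (SD, n = 3 each), a gap within the spread. In the FLO1 strain its flight arrays, at −0.149 and −0.142 from the ground mean, lay below every ground array, as for 18.5% of all genes.

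Within single strains, 0 replication genes passed the test for flight against ground by limma. Of all genes, 8 were called in wild type (0.147%, all lower), 2 in the FLO1 strain (0.0367%, all lower) and 0 in the FLO8 strain (0%). At an unadjusted p under 0.05, wild type had 0 higher (all genes 6.02%) and 1 lower (all genes 3.98%), which was CLB6. The FLO1 strain had 3 higher (all genes 8.20%) and 2 lower (all genes 4.90%), of 13.1% in either direction. The FLO8 strain had 3 higher (all genes 3.47%) and 1 lower (all genes 3.08%), of 6.55% in either direction. The median difference of the 45 genes was 0.08 in wild type, 0.18 in the FLO1 strain and −0.01 in the FLO8 strain, against 0.06, 0.01 and 0.01 for all genes. The median 95% interval of a single gene was 0.994 log2 wide in wild type and in the FLO8 strain and 1.11 in the FLO1 strain, so a difference under 0.497 or 0.556 log2 lay within the interval of a typical replication gene. Flight and ground arrays did not overlap for 4 lower and 4 higher replication genes in wild type (all genes 5.51% and 10.5%), for 6 and 10 in the FLO1 strain (18.5% and 22.9%) and for 1 and 3 in the FLO8 strain (4.39% and 6.57%). The flight mean lay above the ground mean in all 3 strains for 13 of the 45 genes (27.2% of all genes) and below it in all 3 for 5 (19.9% of all genes). The 5 lower ones were CLB6, RFC5, POL32, ORC6 and CDC6, of which CLB6 was called in the average. No replication gene was higher on every flight array of all 3 strains (all genes 0.771%).

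The FLO1 median rested on 1 array. Against the FLO1 ground mean, the median of the 45 genes was 0.35 on the first FLO1 flight array, where 33 genes lay above 0, and −0.06 on the other, where 17 did. In the FLO8 strain the medians were −0.06, 0.35 and −0.25 on replicates 1, 2 and 3, with 16, 35 and 13 genes above 0. In wild type they were 0.00, −0.04 and 0.18, with 23, 22 and 30 genes above 0. Medians of all genes on these 8 arrays lay between −0.02 and 0.07. On FLO8 Microgravity replicate 2, 33 of the 45 genes were the highest of their group (44.8% of all genes), and on replicate 3, 27 were the lowest (37% of all genes). The heat map of flight arrays shows these columns.

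**Figure D4:**
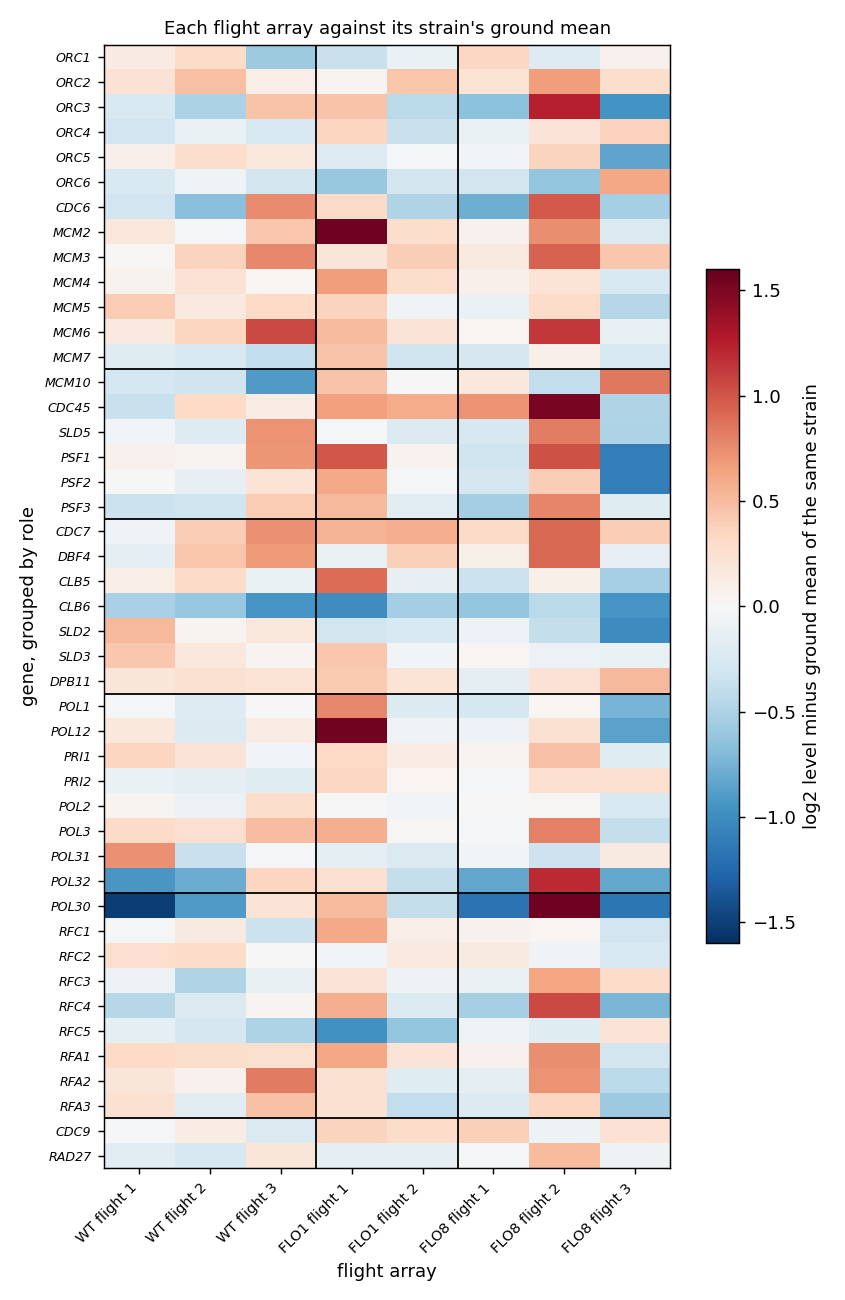
Log2 level of each of the 45 replication genes (rows, grouped by role) on each of the 8 flight arrays (columns), minus the ground mean of the same strain. FLO1 flight array 1 and FLO8 flight array 2 are mostly above 0 (33 and 35 of 45 genes), FLO8 flight array 3 is mostly below (13 above 0), and CLB6 is below 0 on all 8 arrays.

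Replicate spread of the 45 genes was wider in flight, as it was for all genes. The root mean square deviation from the group mean was 0.607 log2 in FLO8 flight and 0.170 in FLO8 ground arrays, against 0.563 and 0.173 for all genes. In the FLO1 strain it was 0.419 in flight and 0.115 on the ground, against 0.497 and 0.132 for all genes. In wild type it was 0.341 in flight and 0.316 on the ground, against 0.389 and 0.319 for all genes. The model used 1 spread for all 6 groups.

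Both engineered strains were next compared with wild type under each condition, and these comparisons share the wild-type arrays. On the ground 0 replication genes were called in the FLO1 strain and 0 in the FLO8 strain by limma, where 0.0367% of all genes were called in each comparison (FLO1 strain 0.0367% higher and 0% lower, FLO8 strain 0.0184% higher and 0.0184% lower). At an unadjusted p under 0.05 there were 0 of the 45 in each. That share over all genes was 0.734% higher, 0.642% lower and 1.38% in either direction in the FLO1 strain, and 1.69%, 1.87% and 3.56% in the FLO8 strain. The shared spread takes in the more variable flight arrays, so these ground tests are conservative. With only the arrays compared, 576 of all genes (FLO1 strain) and 593 (FLO8 strain) had an unadjusted p under 0.05, against 75 and 194 here. In that fit 0 of the 45 were called in either strain. The lowest p in the FLO1 strain belonged to MCM5, with a difference of 0.38 (95% interval −0.06 to 0.82, limma adjusted p = 1.00). The FLO8 strain's lowest belonged to RFC2, a clamp loader subunit, with 0.28 (95% interval −0.04 to 0.60, limma adjusted p = 0.998). Next came CLB5 (0.35) and RFC2 (0.21) in the FLO1 strain, and PRI2, the large primase subunit (−0.25), and ORC6 (−0.43) in the FLO8 strain, none past the threshold.

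In flight 0 replication genes were called in either strain against wild type by limma (all genes called: 0.0367% in each, in the FLO1 strain all higher and in the FLO8 strain 0.0184% in each direction). At an unadjusted p under 0.05 there were 6 higher in the FLO1 strain (all genes 4.22%) and 5 higher in the FLO8 strain (all genes 3.74%). There were 0 lower in the FLO1 strain (all genes 3.54%, either direction 7.76%) and 0 lower in the FLO8 strain (all genes 6.24%, either direction 9.98%). The shared spread takes in the less variable ground arrays, so these p-values may be too low. With only the arrays compared, a fit on fewer arrays, 122 of all genes (FLO1 strain) and 161 (FLO8 strain) had an unadjusted p under 0.05. Over all arrays these were 423 and 544. RFC1, the large clamp loader subunit, read 8.79 and 8.28 log2 on the FLO1 flight arrays, against 8.04, 8.21 and 7.72 on the WT flight arrays. Its difference was 0.55 (SE 0.19, limma adjusted p = 0.495). CLB5 differed by 0.63 (SE 0.25, limma adjusted p = 0.573), with 9.79 and 8.77 on the FLO1 flight arrays against 8.65, 8.86 and 8.45 on the WT flight arrays. Both values moved with the FLO1 array that was kept. Without FLO1 Microgravity replicate 1 RFC1 differed by 0.29 and CLB5 by 0.12, without replicate 2 by 0.80 and 1.13, both called, and without the 4 arrays that stood apart by 0.16 and 0.02. CDC9 differed by 0.39 (SE 0.17, limma adjusted p = 0.596). In the FLO8 strain the lowest p belonged to RFC3, another clamp loader subunit, with 0.46 (SE 0.18, limma adjusted p = 0.405), followed by MCM10 with 0.69 (SE 0.27, limma adjusted p = 0.411) and RFC5 with 0.43 (SE 0.17, limma adjusted p = 0.412). Without the 4 arrays these were 0.14, 0.45 and 0.29. The difference in flight response from wild type was called for 0 of the 45 genes in the FLO1 strain and for 0 in the FLO8 strain by limma, with 0 of all genes called (0% in each). At an unadjusted p under 0.05 there were also 0 of the 45 in each, while all genes had 1.71% higher, 1.80% lower and 3.51% in either direction in the FLO1 strain, and 0.807%, 2.15% and 2.95% in the FLO8 strain. The lowest p of that difference in the FLO8 strain belonged to RFC3, at 0.50 (SE 0.25, limma adjusted p = 0.998), and it was 0.18 without the 4 arrays.

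Other genes of the replication pathway and of the G1-to-S transition were read from the same model for context. Of 27 further fork and origin genes, 1 was called higher on average and 0 lower, with a median of 0.04. The called gene was DNA2, a nuclease and helicase of Okazaki fragment processing, at 0.46 (SE 0.12, limma adjusted p = 0.0467), and that call was lost in 14 of 17 fits that left out 1 array. Of 7 G1 cyclin and CDK genes 3 were called lower and 0 higher, with a median of −0.47. CLN1 and CLN2, the cyclins that carry cells past the G1 commitment point, fell by 1.03 (SE 0.11, limma adjusted p = 3.25e-04) and 0.68 (SE 0.09, limma adjusted p = 0.00226) on the log2 scale. PCL1, a G1 cyclin of the Pho85 kinase, was called at −1.27 (limma adjusted p = 0.0332), a call lost in 10 of 17 such fits, and is named here after its values were seen.

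Of 11 other MBF targets measured 2 were called lower and 0 higher, with a median of −0.05. RNR1, the large subunit of ribonucleotide reductase, fell by 1.08 (SE 0.25, limma adjusted p = 0.0332, lost in 11 of 17 such fits), and MCD1, a cohesin subunit, by 0.55 (SE 0.10, limma adjusted p = 0.013). Of 7 core histone genes 1 was called lower, HTB2, a histone H2B gene, which fell by 0.74 (SE 0.09, limma adjusted p = 7.20e-04), and the median was −0.12. Of 11 checkpoint and dNTP supply genes 1 was called higher, the checkpoint kinase MEC1 at 0.38 (SE 0.09, limma adjusted p = 0.0334, lost in 8 of 17 such fits). Of 6 regulators of G1/S transcription 0 were called by limma, with 3 at an unadjusted p under 0.05 (all genes 21.7%). NRM1, a repressor of MBF, differed by −0.47 (SE 0.14, limma adjusted p = 0.0753) and was called with array weights (−0.46), at −0.62 without FLO1 Microgravity replicate 2 and at −0.53 without WT Ground replicate 3. It was −0.21 without the 4 arrays that stood apart. SWI6, a shared subunit of MBF and SBF, differed by 0.54 (SE 0.22, limma adjusted p = 0.183). These lists were chosen with results of these data known, and all the calls among them ended in the fit with the integrity covariate, in which the differences were −1.08 for CLN1, −0.85 for CLN2, −1.36 for PCL1, −0.89 for RNR1, −0.47 for MCD1, −0.69 for HTB2, 0.44 for MEC1 and 0.34 for DNA2. The strip plot of lists sets them beside the 45 genes.

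**Figure D5:**
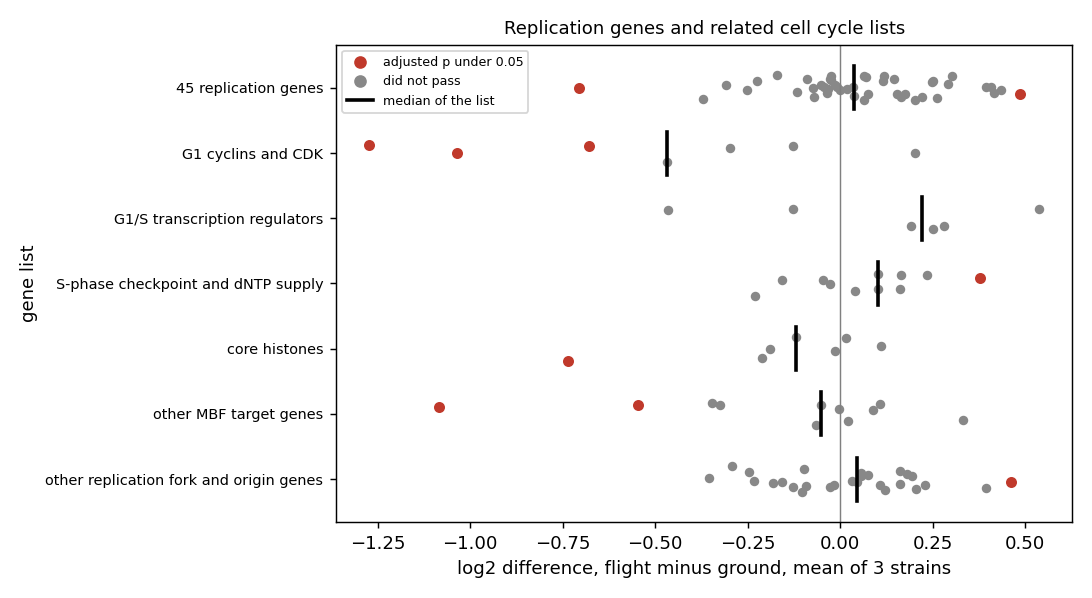
Log2 difference of flight minus ground, averaged over the 3 strains, for each gene (points) of the 45 replication genes and of 6 related lists, with list medians as black bars and called genes in red. The replication genes centre on 0.04, and the G1 cyclin list has a median of −0.47 with 3 genes called lower.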

How the data were processed

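The table deposited by the authors holds log2 levels per probe set. Per the submitters' processing notes MAS5, RMA and affy 1.26.1 were used, with no role or order given, and the steps of background correction and normalization are not given in the sources used here. Array medians lay between 9.84 and 9.94 log2, so no further normalization was applied. The precision is limited by the number of arrays. Of 10928 probe sets, 7244 carry 1 gene symbol, 1 carries several and 3683 carry none; 5498 belong to S. cerevisiae, with 12 symbols updated through RefSeq. The probe set with the highest mean was kept for 47 genes, leaving 5449. Background was the 95th percentile of S. pombe probe set means, 4.56 log2. Close gene copies can cross-hybridise. No array build or sequence table was used.

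Groups came from sample titles. Limma 3.58.1 in R 4.3.3 fitted 1 mean per group to 17 arrays (11 residual degrees of freedom), with two-sided eBayes tests and Benjamini-Hochberg adjustment over all genes, and was tested on simulated data. Level errors are SD and difference errors SE. The members and lists were chosen with earlier results of these data known. Printed differences were mostly drawn from the 12 members with the lowest p on average, 8 per strain in flight, 3 per strain comparison, 2 per difference of responses, and all called members. Of other lists they were drawn from the 2 genes with the lowest p and any other called gene. Not all differences within strains are printed. Some genes of the related lists are not reported here. Integrity was the mean 3 prime minus 5 prime difference over 7 control genes.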

Additional observations from a re-analysis of the deposited data

How the results depend on the processing

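Each count, median and named difference was recomputed with median centring, array weights, a trended variance, dim genes left out, only the arrays compared, the replicate block, the integrity covariate, the other probe set, without the 4 arrays that stand apart, and without each array in turn. The number of replication genes called on average was 5 with array weights (776 of all 5449 genes) and 0 with the integrity covariate (0 of all genes). It ran from 1 to 4 when 1 array of a group of 3 was left out, where 56 to 410 of all genes were called. Within strains the 0 became 3 in wild type (598 of all genes) and 9 in the FLO8 strain (748 of all genes) with array weights. POL30 in wild type differed by −1.21 without the 4 arrays. In the FLO1 strain calls appeared only without FLO1 Microgravity replicate 2, which left 1 flight array there. Calls over all genes also rose in that fit, so it does not single out replication genes. Against wild type the number became 1 with array weights for the FLO8 strain on the ground (645 of all genes). For the FLO1 strain in flight, calls appeared only without FLO1 Microgravity replicate 2, where calls over all genes rose as well. The fit of array weights stopped short of its convergence tolerance.

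The median of the 45 genes in the FLO1 strain was −0.0625 without the 4 arrays and ran from −0.0625 to 0.353 with 1 array left out. Against wild type in flight it ran from −0.11 to 0.30 for the FLO1 strain and from −0.22 to 0.13 for the FLO8 strain, and for the difference in response of the FLO8 strain from −0.26 to 0.12. The 65 named differences counted here were picked by p in the fit over all arrays. POL30, POL32, PSF3 and RFC4 on average and CLB5 in the FLO1 strain are printed above but not counted. Each of these gained a call in a fit given above, and PSF3 and CLB5 changed sign. Of 1236 values of the 65, 1138 kept direction and side of the threshold, 69 lost a call, 24 gained one and 5 changed sign. Among the 65, the sign changes were POL12 in the FLO1 strain (−0.0750 without the 4 arrays, and from −0.0750 to 1.54 with 1 array left out), RFC3 in the FLO8 strain (−0.12 with array weights, −0.11 without the 4 arrays) and DUT1, a dUTPase, on average (0.0239 with the integrity covariate). DUT1 differed by −0.23 over all arrays (SE 0.15, limma adjusted p = 0.395). It was −0.46 without the 4 arrays and −0.48, called lower, with array weights. The causes of the sign changes were not tested. With the replicate block 2 replication genes were called on average, CLB6 at −0.74 and CDC7 at 0.50, and 127 genes of the whole table in place of 235. Same-numbered arrays deviated together at a correlation over 0.1 in 3 of 8 pairs. Of the 8 flight arrays 3 correlated best with the ground array of their number. So few pairs cannot tell whether the numbers mark a pairing.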
